A study of Mus musculus with 16 samples.

Results

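The BCL2 family decides whether a cell keeps its mitochondrial outer membrane intact. Expression of 10 of its genes was followed in mouse erythroid progenitors, chosen by symbol as the listed survival and death genes of the family from 15386 genes in the RNA-seq table and 13490 genes in the m6A table. The list held 3 pro-survival genes (*Bcl2*, *Bcl2l1* and *Mcl1*) and 7 pro-death genes, of which *Bax* and *Bak1* encode pore-forming proteins and the other 5 (*Bcl2l11*, *Bad*, *Bid*, *Bbc3* and *Pmaip1*) encode BH3-only proteins. All 10 were in both tables.

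The study asked what loss of *Mettl3*, the catalytic subunit of the methyltransferase that places N6-methyladenosine (m6A) on mRNA, does to erythroid progenitors of the bone marrow. RNA-seq was done on 3 libraries labelled control CFU-E and 3 labelled *Mettl3*-deficient Kit-low CFU-E, here CFU-E Kit-lo, and m6A-seq on control CFU-E, with 2 IP libraries and 2 input libraries. CFU-E, the late colony-forming erythroid progenitors that depend on erythropoietin, were sorted as living lineage-negative cells with Kit and CD71 and without CD16/32, CD41, CD34 or Sca1 at the surface. The mice were of both sexes, 10 to 16 weeks old and on a C57BL/6 background. The deficient mice were *Mettl3* fl/fl with 1 copy of EpoR-tdTomato-Cre, a Cre that recombines in erythroid cells and also in macrophages of the erythroblastic island. The genotype of the control mice is not given in the labels, and no label says whether a library held 1 mouse or a pool, so p-values measure the spread between these libraries only. Genotype and Kit level changed together in the RNA-seq comparison and cannot be told apart.

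BCL2, BCL-XL (the main product of *Bcl2l1*) and MCL1 hold the membrane closed by binding the pore formers and the BH3-only proteins. BAX and BAK, once released, assemble into pores that let cytochrome c into the cytosol, where it starts the caspase cascade. BH3-only proteins relay stress to this switch: BIM (*Bcl2l11*) follows loss of growth factor, PUMA (*Bbc3*) and NOXA (*Pmaip1*) are classic p53 targets, BAD is held in check by phosphorylation, and BID is activated by cleavage. In erythroid cells BCL-XL is the best known survival factor below the erythropoietin receptor, and MCL1 is needed earlier in the lineage.

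Total counts per library ran from 17429262 to 21329242 in the RNA-seq and from 19421059 to 37142742 in the m6A-seq experiment. Levels are given as CPM, counts scaled to a common library size after TMM normalization. The gated gene *Kit* measured 598 ± 47.0 CPM (SD, n = 3) in control and 55.1 ± 12.4 CPM (n = 3) in CFU-E Kit-lo. *Mettl3* was 123 ± 7.43 CPM in control and 117 ± 9.52 CPM in CFU-E Kit-lo, and the difference on the log2 scale was -0.07 (SE 0.10, adjusted p = 0.63). Here and below, tests are quasi-likelihood tests of edgeR, adjusted over all genes tested by the Benjamini-Hochberg method. The gene-level counts therefore did not show the deletion. They do not resolve exons, so they cannot check a deletion of part of the gene, and the genotype of the libraries is used below as labelled. By qRT-PCR and Western blot, the study reported that *Mettl3* mRNA and protein were absent from erythroid cells of the deficient mice. The summed level of 8 erythroid progenitor markers was 3168 to 3266 CPM in control and 3236 to 3388 CPM in CFU-E Kit-lo, although 4 of the 8 rose and 1, *Kit*, fell. That of 8 macrophage markers, 8 of 10 in the table, was 8.69 to 13.7 and 7.81 to 9.38 CPM, with *Adgre1* at 0 in every CFU-E Kit-lo library. Granulocyte markers (8 genes) summed to 25.5 to 37.8 and 16 to 24.0 CPM, megakaryocyte markers (5 of 6 in the table) to 21.1 to 27.1 and 21.2 to 29.2 CPM, and lymphoid markers (6 of 7) to 3.54 to 4.46 and 5.09 to 6.36 CPM.

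In CFU-E Kit-lo, *Bcl2l1*, *Bax* and *Bcl2l11* rose and *Bcl2* fell, while the other 6 genes were not differentially expressed. Differential expression (DEG) was called where the fold reached 1.5 and the adjusted p was under 0.05. By this rule 22.0% of the 11979 genes tested were DEGs, 12.1% higher and 9.83% lower, against 3 higher and 1 lower of the 10 BCL2 family genes. The median log2 fold change of the 10 genes was 0.49, and that of all genes tested was 0.01. The pro-death genes had positive values in 7 of 7, with a median of 0.41, and 2 of them passed the test. The 3 pro-survival genes went in both directions, with a median of 0.56. In 6 of the 10 genes every library of one group lay beyond every library of the other, as did 47.5% of all genes tested.

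**Figure D1:**
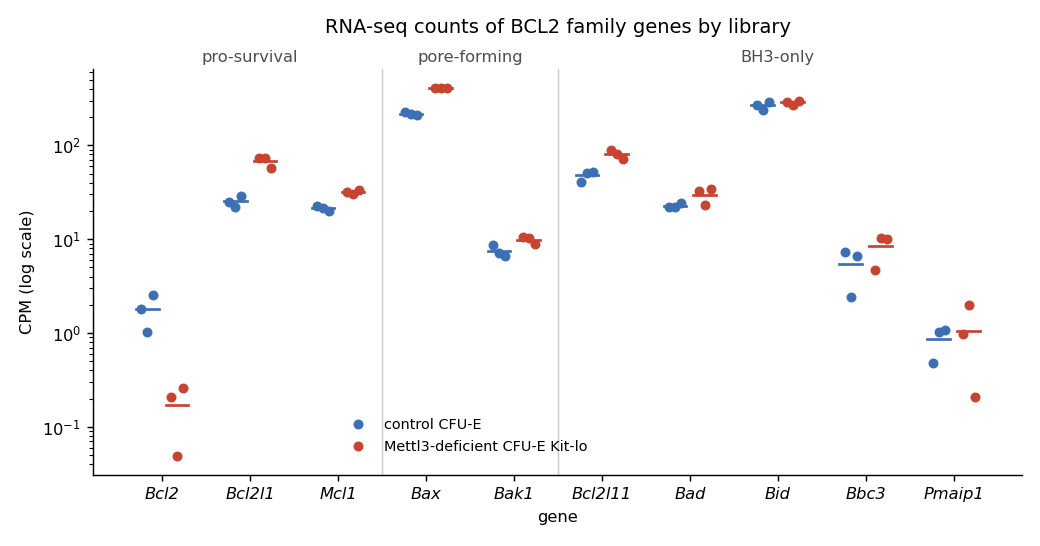
Each point is 1 RNA-seq library (blue, 3 control CFU-E; red, 3 *Mettl3*-deficient CFU-E Kit-lo), the line is the group mean, and the vertical axis is CPM on a log scale. The red points lie above the blue ones for *Bcl2l1*, *Mcl1*, *Bax*, *Bak1* and *Bcl2l11*, below them for *Bcl2*, and overlap them for the other 4 genes.

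*Bcl2l1* (chr2:152780668-152831728, minus strand, GRCm38), which encodes BCL-XL, was the pro-survival gene that rose. Its level was 25, 21.8 and 29.2 CPM in the control libraries and 73.4, 73.2 and 57.0 CPM in CFU-E Kit-lo. The lowest CFU-E Kit-lo library was well above the highest control library. The fold was 2.68, with a log2 fold change of 1.42 (SE 0.15, 95% interval 1.08 to 1.76, adjusted p = 8.1e-05). That value was higher than 95.5% of the genes tested.

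*Bcl2* (chr1:106538178-106714274, minus strand), the founding survival gene of the family, moved the other way. Its counts were 38, 18 and 44 in control CFU-E and 4, 1 and 5 in CFU-E Kit-lo, which is 1.82, 1.03 and 2.52 CPM against 0.208, 0.0485 and 0.260 CPM. No library of one group reached the range of the other, but the CFU-E Kit-lo values rest on 5 counts or fewer. The log2 fold change was -3.34 (SE 0.69, 95% interval -4.88 to -1.80, adjusted p = 0.0042), among the lowest 0.6% of the genes tested. Under the authors' filter of at least 1 TPM in a group, with TPM computed here from the counts and transcript lengths, *Bcl2* and *Pmaip1* were too low to be tested. In bulk samples, fewer cells that express a gene and less of its RNA per cell cannot be told apart. *Bcl2* moved together with early progenitor markers, 7 of 8 in the table, which summed to 755 to 861 CPM in control and 72.7 to 96.3 CPM in CFU-E Kit-lo, and their part in the result was not tested. Most of that sum was *Kit*, on which the cells were gated. Without it the other 6 markers summed to 211 to 239 CPM in control and 26.6 to 28.8 CPM in CFU-E Kit-lo.

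*Mcl1* (chr3:95658788-95663176, plus strand) encodes a short-lived survival protein. It measured 22.6, 21.7 and 20 CPM in control and 31.5, 30.2 and 33.1 CPM in CFU-E Kit-lo. Both groups were tight and did not overlap. The log2 fold change was 0.56 (SE 0.13, 95% interval 0.27 to 0.85) with an adjusted p of 0.0077, but the fold of 1.47 stayed just under the threshold of 1.5, so *Mcl1* was not counted as a DEG. It passed both thresholds under 3 alternatives, at log2 values of 0.61 with library size as the only scaling, 0.60 without control replicate 1 and 0.61 without CFU-E Kit-lo replicate 2.

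*Bax* (chr7:45461697-45466898, minus strand) was the pore former that rose. Its level was 228, 217 and 211 CPM in control CFU-E and 412, 409.7 and 408 CPM in CFU-E Kit-lo. The CFU-E Kit-lo libraries differed by less than 5 CPM from each other and all exceeded the control libraries. The fold was 1.87, with a log2 fold change of 0.91 (SE 0.07, 95% interval 0.75 to 1.06, adjusted p = 1.2e-05). *Bak1* (chr17:27019810-27029009, minus strand), the other pore former, measured 8.66, 7.09 and 6.64 CPM in control and 10.5, 10.3 and 8.96 CPM in CFU-E Kit-lo. These groups did not overlap either, yet the log2 fold change of 0.41 (SE 0.21, 95% interval -0.06 to 0.88) did not pass the test (adjusted p = 0.16).

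*Bcl2l11* (chr2:128126038-128162547, plus strand), which encodes BIM, was the BH3-only gene that rose. Its level was 41.2, 51.3 and 52.6 CPM in control and 88.4, 81.2 and 71.1 CPM in CFU-E Kit-lo. The groups were apart, with control replicate 1 the lowest library. The fold was 1.66, with a log2 fold change of 0.73 (SE 0.13, 95% interval 0.44 to 1.02, adjusted p = 0.0018). When the fold itself was tested against 1.5, the adjusted p was 0.29, so the rise was not shown to exceed 1.5-fold.

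The other 4 BH3-only genes did not pass the test and overlapped between the groups. *Bad* (chr19:6941861-6951899, plus strand) measured 22.1, 21.9 and 24.5 CPM in control and 32.5, 22.9 and 34.1 CPM in CFU-E Kit-lo. CFU-E Kit-lo replicate 2 sat within the control range while the other two were above it, and the log2 value was 0.39 (SE 0.17, adjusted p = 0.11). The study named *Bad* among the pro-apoptotic genes that were higher in these cells. Here *Bad* was not called under any alternative, at log2 values of 0.30 to 0.57. *Bid* (chr6:120891930-120916853, minus strand) measured 267, 241 and 292 CPM in control and 293, 269.9 and 297 CPM in CFU-E Kit-lo. With a log2 value of 0.10 and a 95% interval of -0.09 to 0.30, *Bid* was the BH3-only gene whose difference was best bounded. *Bbc3* (chr7:16308393-16318205, plus strand), which encodes PUMA, spread widely within both groups, at 7.27, 2.40 and 6.69 CPM in control and 4.72, 10.4 and 10.1 CPM in CFU-E Kit-lo. Its log2 value of 0.62 carried an interval of -0.33 to 1.57 (adjusted p = 0.30). *Pmaip1*, which encodes NOXA, had 10, 18 and 19 counts in control and 19, 41 and 4 counts in CFU-E Kit-lo. A change in *Pmaip1* was not detectable at this depth (log2 value 0.31, interval -1.33 to 1.94), and its sign turned to -0.49 without CFU-E Kit-lo replicate 2.

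**Figure D2:**
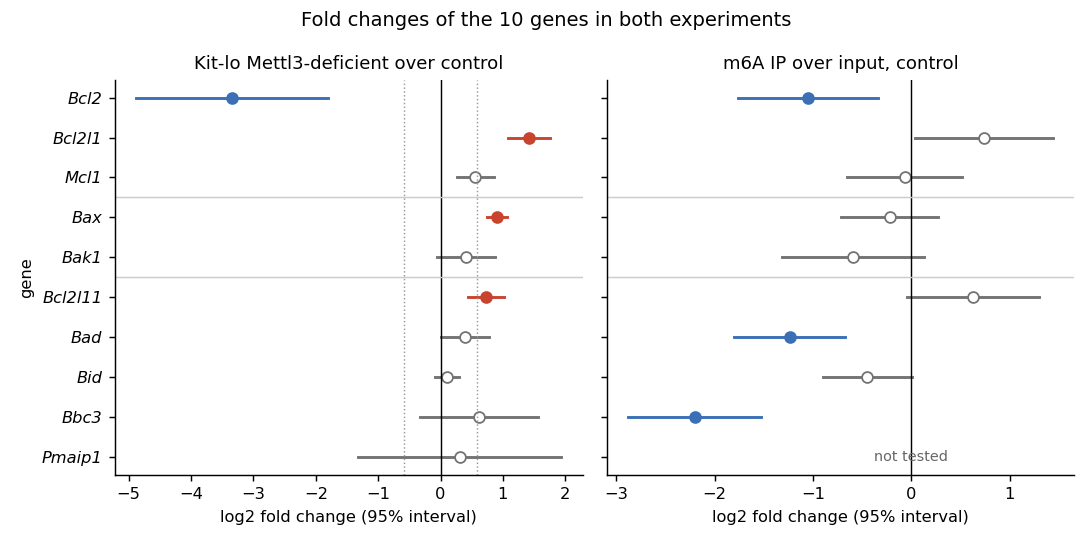
Points are log2 fold changes and bars are 95% intervals from edgeR, for *Mettl3*-deficient CFU-E Kit-lo over control at the left and for m6A IP over input in control CFU-E at the right. Red points rose and blue points fell by the thresholds used in each experiment, and open points did not pass. Dotted lines at the left mark a fold of 1.5. *Bcl2l1*, *Bax* and *Bcl2l11* are red and *Bcl2* is blue at the left, and *Bcl2*, *Bad* and *Bbc3* are blue at the right.

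None of the 10 directions turned with another scaling (DESeq2 size factors, library size only or upper quartile). The late erythroid markers, 11 of 12 in the table, moved with them. Their summed level was 519.8 to 574 CPM in control and 3376 to 5277 CPM in CFU-E Kit-lo, and 9 of the 11 tested rose. The part of this difference in erythroid stage in the values of *Bcl2l1*, *Bax* and *Bcl2l11* was not tested.

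Levels of different genes were compared per kilobase of the longest annotated coding transcript. In control CFU-E the order was *Bax* (199 ± 7.57 CPM per kilobase, SD, n = 3), *Bid* (122 ± 11.8), *Bad* (14.9 ± 0.948), *Bcl2l1* (9.87 ± 1.45), *Bcl2l11* (9.6 ± 1.24), *Mcl1* (6.27 ± 0.396), *Bak1* (3.13 ± 0.445), *Bbc3* (3.01 ± 1.47), *Pmaip1* (0.317 ± 0.123) and *Bcl2* (0.249 ± 0.104). The ranges of *Bcl2l1* and *Bcl2l11*, of *Bak1* and *Bbc3*, and of *Pmaip1* and *Bcl2* overlapped, so the order within these pairs is not resolved. In CFU-E Kit-lo, *Bax* (373 ± 1.93 CPM per kilobase) and *Bid* (131 ± 6.74) were still first, and *Bcl2l1* (26.4 ± 3.66) stood before *Bad* (19.5 ± 3.93) and *Bcl2l11* (15.9 ± 1.73). *Bcl2l1* and *Bad* overlapped in CFU-E Kit-lo, whereas in control their ranges were apart, with *Bad* the higher. *Bcl2* was last at 0.0239 ± 0.0153 CPM per kilobase. With the mean length of the coding transcripts in place of the longest, the control order within the pairs *Bcl2l1* and *Bcl2l11* and *Bak1* and *Bbc3* turned, and *Bcl2l1* no longer overlapped *Bad* in CFU-E Kit-lo.

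Summed per kilobase, the 3 pro-survival genes measured 16.6, 15 and 17.6 CPM per kilobase in control and 37.8, 37.4 and 31.9 in CFU-E Kit-lo. The 7 pro-death genes together measured 359, 336 and 359 CPM per kilobase in control and 555, 538 and 553 in CFU-E Kit-lo. The quotient of the sums, pro-death over pro-survival, was 21.6, 22.4 and 20.4 in control and 14.7, 14.4 and 17.3 in CFU-E Kit-lo. Both sums were thus higher and their quotient lower in every CFU-E Kit-lo library. No share over all genes was computed for quotients over the pro-survival sum. Over *Bcl2l1* alone, its largest part, 95.3% of the other genes tested had a lower mean quotient. The lower quotient is therefore not read as a result about the pro-death genes. The sums are mostly 1 or 2 genes each. *Bcl2l1* made up 56.7% to 64.8% of the pro-survival sum in control and 69.5% to 76.3% in CFU-E Kit-lo, and *Bax* made up 53.5% to 58.7% and 67.1% to 69.3% of the pro-death sum. For the pore formers alone over the pro-survival sum, the quotient was 12.7, 13.4 and 11.1 in control and 10, 10.1 and 11.7 in CFU-E Kit-lo, and the groups overlapped.

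Quotients of 2 counts from the same library do not depend on the scaling between libraries and show which partner the result turns on. These quotients are descriptions with no test, since the genes were chosen with results of these data known. Over *Bcl2l1*, the quotient of each of the 7 pro-death genes was lower in CFU-E Kit-lo on average, and for 5 of them (*Bax*, *Bak1*, *Bcl2l11*, *Bad* and *Bid*) the groups did not overlap. This was the common case: of the other 11978 genes tested, 95.3% had a lower mean quotient over *Bcl2l1*, and 81.9% had all CFU-E Kit-lo libraries below all control libraries. The count therefore describes *Bcl2l1* and not the pro-death genes. *Bax* over *Bcl2l1* was 9.12, 9.94 and 7.23 in control and 5.62, 5.60 and 7.16 in CFU-E Kit-lo. The groups were separated by a narrow gap, between control replicate 3 and CFU-E Kit-lo replicate 3. *Bcl2l11* over *Bcl2l1* was 1.65, 2.35 and 1.80 in control and 1.21, 1.11 and 1.25 in CFU-E Kit-lo. *Bid* over *Bcl2l1* showed the widest gap, at 10.7, 11 and 10 in control and 3.99, 3.69 and 5.22 in CFU-E Kit-lo. *Bid* counts hardly differed between the groups, so this quotient followed *Bcl2l1*.

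Over *Mcl1* the picture was mixed. The quotient of *Bax* over *Mcl1* was higher in CFU-E Kit-lo (13.1, 13.6 and 12.3) than in control (10.1, 9.99 and 10.6). *Bid* over *Mcl1* was lower in CFU-E Kit-lo (9.31, 8.93 and 8.98) than in control (11.8, 11.1 and 14.6). The other 5 quotients over *Mcl1* overlapped between the groups. Over all genes, 6.78% of quotients over *Mcl1* lay wholly above control, as that of *Bax* did, and 55.8% wholly below. Over *Bcl2* all 7 quotients were higher in CFU-E Kit-lo and 6 did not overlap, *Pmaip1* being the exception. So did nearly all genes, with 99.2% of quotients over *Bcl2* higher and 93.8% wholly above control, so these counts follow from the low counts of *Bcl2*. *Bax* over *Bcl2*, for instance, was 125, 211 and 84.0 in control and 1986, 8445 and 1567 in CFU-E Kit-lo, the latter over *Bcl2* counts of 4, 1 and 5.

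**Figure D3:**
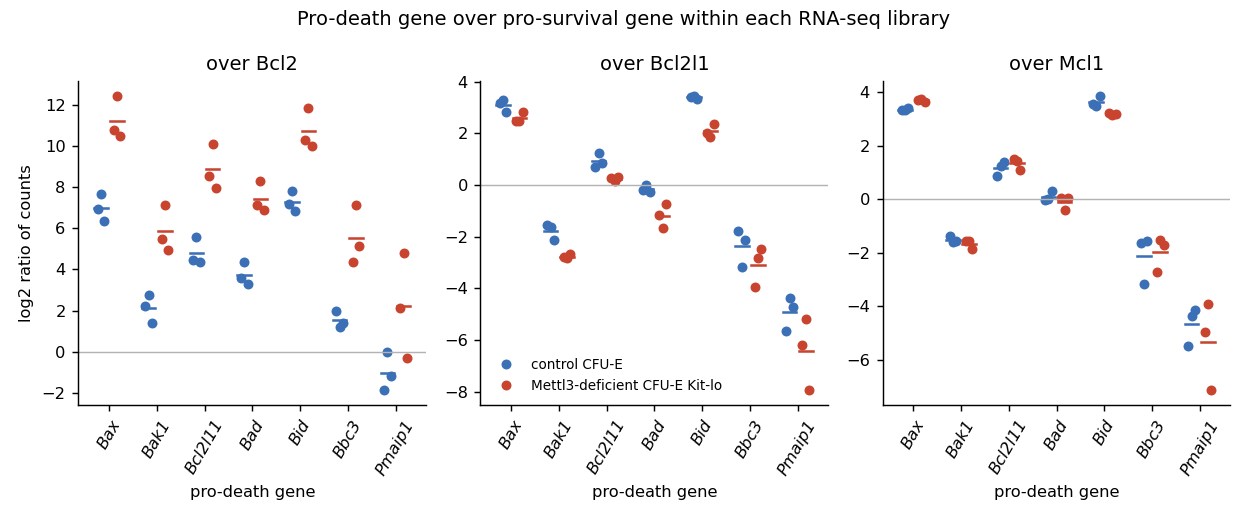
Log2 of the count of each pro-death gene over that of *Bcl2*, *Bcl2l1* or *Mcl1* in the same RNA-seq library, with 0.5 added to both counts (blue, 3 control CFU-E; red, 3 *Mettl3*-deficient CFU-E Kit-lo; lines, group means). Red lies above blue over *Bcl2*, with *Pmaip1* overlapping, below or overlapping blue over *Bcl2l1*, and on either side over *Mcl1*.

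The genes whose pattern over the 6 RNA-seq libraries lay closest to 3 of the genes were found by the root mean square distance of centred log2 CPM. For *Bcl2l1* these were *Acer2* (distance 0.101), *Ehbp1l1* (0.122) and *Ndufaf4* (0.126). For *Mcl1* they were *Pdss2* (0.033), *Ciao1* (0.034) and *Klf1* (0.036), the last a master transcription factor of red cells. For *Bax* they were *Gna13* (0.039), *Bcl11a* (0.044) and *Birc5* (0.051), of which *Bcl11a* encodes a globin-switching repressor and *Birc5* the mitotic inhibitor-of-apoptosis protein survivin. The 6 libraries fall into 2 groups, so likeness over them is mostly likeness of the difference between the groups.

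RefSeq promoters on GRCm38.p6, 250 bases before to 50 bases after a start site, were given for 9 of the 10 genes (15 start sites, GC content 49.3% to 78.0%). Both strands were searched for TTCNNNGAA, the gamma-activated site that STAT5 binds below the erythropoietin receptor, for AGATAA, a core GATA1 site, and for the p53 half-site. These motifs are in 8.30%, 11.2% and 8.36% of 32851 promoters. The 15 promoters held 0 matches to TTCNNNGAA, 1 match to AGATAA (*Bcl2l1*) and 1 match to the p53 half-site (*Bax*). For 15 promoters these counts are not above the shares over all promoters, so they are no result about the family. *Bcl2l11*, which also rose, held no match. The promoters with a match are shown. The match of *Bcl2l1* begins 41 bases before the start site with the lowest coordinates of its 3 (chr2:152828440-152828739, minus strand). On this strand that is the most 3′ of them, inside the annotated gene. Coding bases of *Bcl2l1* at chr2:152829876-152829900 lie 5′ of this start site, so a transcript from it would lack them. The promoters of the other start sites (chr2:152830668-152830967 and chr2:152831679-152831978) lie further 5′ and held no match. In *Bax* the match begins 201 bases before the start site (chr7:45466849-45467148, minus strand). Capitals mark the matches.
Bcl2l1: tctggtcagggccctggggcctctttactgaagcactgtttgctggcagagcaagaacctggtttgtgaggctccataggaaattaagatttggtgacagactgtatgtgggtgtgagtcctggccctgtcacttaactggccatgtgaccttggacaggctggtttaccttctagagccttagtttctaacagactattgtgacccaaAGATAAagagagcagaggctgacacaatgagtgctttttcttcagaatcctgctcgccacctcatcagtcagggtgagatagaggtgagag
Bax: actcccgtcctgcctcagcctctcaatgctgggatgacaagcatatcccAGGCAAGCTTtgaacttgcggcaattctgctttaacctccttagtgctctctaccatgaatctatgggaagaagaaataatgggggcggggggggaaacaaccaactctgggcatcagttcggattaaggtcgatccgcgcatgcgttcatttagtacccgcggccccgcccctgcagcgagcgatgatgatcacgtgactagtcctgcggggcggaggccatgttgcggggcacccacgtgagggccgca
A match is a description of the letters in this window. The counts do not say which *Bcl2l1* start site was in use.

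Beyond the 10 genes, 15 other relatives of BCL2 were listed, of which 8 were in the RNA-seq table and 6 were tested. *Bcl2l2*, which encodes the survival protein BCL-W, rose from 2.88 ± 0.330 to 5.49 ± 1.38 CPM (log2 fold change 0.93, SE 0.31, adjusted p = 0.043). This call was not stable: it was lost with upper quartile scaling (adjusted p = 0.051) and without any 1 library other than CFU-E Kit-lo replicate 2 (adjusted p from 0.080 to 0.14). The BH3-only gene *Bik* measured 1.34 ± 0.257 and 2.75 ± 0.246 CPM (log2 value 1.03, adjusted p = 0.064). The mitophagy receptors *Bnip3l*, *Bcl2l13* and *Bnip3* did not qualify as DEGs. *Bnip3l*, needed for clearing mitochondria from maturing red cells, was at 309.6 ± 19.6 and 381 ± 24.8 CPM (log2 value 0.30, adjusted p = 0.018), *Bcl2l13* at a log2 value of 0.36 (adjusted p = 0.0035), both below the fold threshold, and *Bnip3* at -0.16 (adjusted p = 0.65). *Bcl2l12* had a log2 value of -0.21 (adjusted p = 0.17). *Bcl2l14* and *Bcl2l15* were too low to test, and *Bcl2a1a*, *Bcl2a1b*, *Bcl2a1d*, *Bcl2l10*, *Bok*, *Bmf* and *Hrk* were not in the RNA-seq table.

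Downstream of the pore, *Cycs*, which encodes cytochrome c, fell from 70.0 ± 6.75 to 46.0 ± 4.59 CPM (log2 fold change -0.61, adjusted p = 0.0035). Of 12 upstream regulators tested, 3 rose and 1 fell. *Foxo3*, a transcription factor that drives *Bcl2l11*, rose from 10.6 ± 2.48 to 27.8 ± 9.11 CPM (log2 fold change 1.4, adjusted p = 0.0028). *Mdm2*, a p53 target that degrades p53, rose with a log2 fold change of 0.75 (adjusted p = 0.00046), and *Epor*, the erythropoietin receptor, with 0.59 (adjusted p = 0.00036). *Trp53*, which encodes p53, fell from 652 ± 32.1 to 433 ± 18.2 CPM (log2 fold change -0.59, adjusted p = 0.00022). When the fold itself was tested against 1.5, the adjusted p was 0.81 for *Trp53*, 0.75 for *Cycs*, 0.8 for *Epor* and 0.16 for *Mdm2*. None of these changes was therefore shown to exceed 1.5-fold. *Trp53*, *Cycs* and *Epor* lay close to the 1.5-fold threshold, a log2 value of 0.585 in size. Their calls were also lost, by size and not by p, under some other scalings, filters or left-out libraries. *Trp53* was at -0.54 with library size only and between -0.53 and -0.58 when control replicate 1, control replicate 3, CFU-E Kit-lo replicate 2 or CFU-E Kit-lo replicate 3 was left out. *Cycs* was at -0.55 with library size only and between -0.55 and -0.57 without control replicate 1 or CFU-E Kit-lo replicate 1 or 2. *Epor* was at 0.55 with upper quartile scaling, 0.58 without control replicate 3 and 0.53 without CFU-E Kit-lo replicate 1. None of the 6 genes for turnover of MCL1 and BIM proteins passed both thresholds.

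The m6A-seq libraries asked whether transcripts of the family were captured by an antibody to m6A in control CFU-E. RNA was captured whole and counted from its 3′ end, so IP over input is a value per gene and gives no position of the mark. The erythroid progenitor markers summed to 3186 to 3830.3 CPM in the input libraries, and the macrophage markers, 5 of 10 in the table, to 3.54 to 5.07 CPM. Granulocyte markers summed to 6.74 to 9.16 CPM in input and megakaryocyte markers to 18.4 to 18.8 CPM. Lymphoid markers, 5 of 7 in the table, summed to 32.2 to 47.8 CPM in input and 18.1 to 19.6 CPM in IP. In the RNA-seq control libraries the lymphoid sum was 3.54 to 4.46 CPM, over 6 of 7 markers. The experiments used different library protocols, so CPM are not directly comparable between them. *Kit*, for instance, was 598 ± 47.0 CPM in RNA-seq control and 30.4 ± 13.7 CPM in input. Early progenitor markers summed to 755 to 861 CPM in RNA-seq control and 95.6 to 116 CPM in input. The part of lymphoid cells in the IP values of the family, *Bcl2* included, was not tested. A gene was called m6A-modified where its IP exceeded its input with an adjusted p under 0.05, and lower in IP where it fell short of it at the same threshold. These were 7.90% and 7.86% of the 11447 genes tested. Of the BCL2 family genes 9 were tested, with 0 m6A-modified, 3 lower in IP (*Bcl2*, *Bad* and *Bbc3*) and 6 not passing. Their median was -0.45, and that of all genes tested was 0.06. In 8 of the 9 the 2 IP libraries lay on one side of the 2 input libraries, as in 60.9% of all genes tested, which is a weak criterion with 2 libraries a group.

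The split between m6A-modified and lower in IP depended on the scaling. It was 904 against 900 with TMM, 934 against 608 with library size only and 1451 against 754 with upper quartile scaling, where the median of all genes was 0.21 and 0.18. Signs are therefore relative to the TMM scale. Of the 9 family genes only *Mcl1*, at -0.07, turned sign with the scaling, to 0.09 with library size and 0.06 with the upper quartile.

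**Figure D4:**
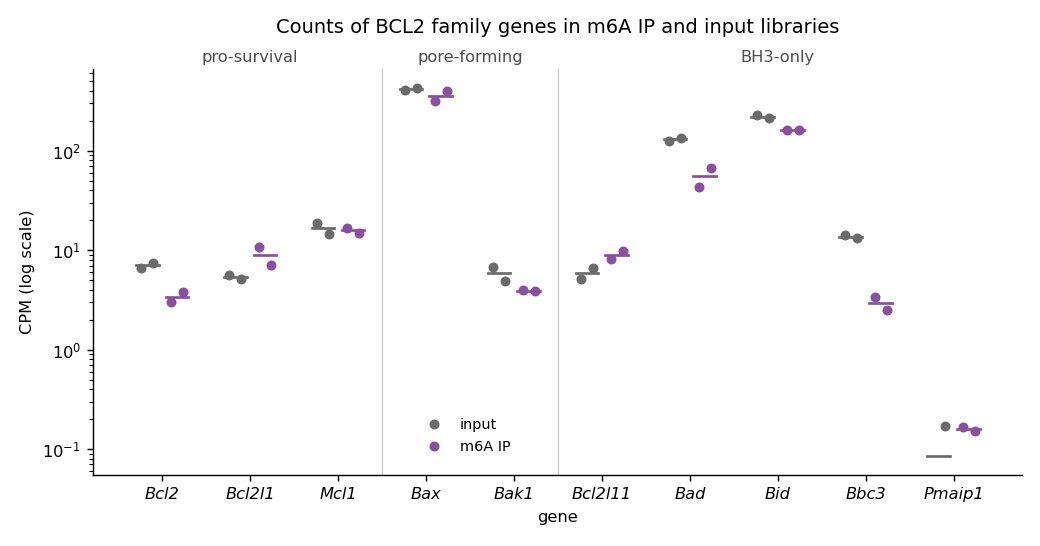
Each point is 1 library of control CFU-E (grey, 2 input; purple, 2 m6A IP), the line is the group mean, and the vertical axis is CPM on a log scale. Purple lies below grey for *Bcl2*, *Bax* (by a narrow gap), *Bak1*, *Bad*, *Bid* and *Bbc3*, and above it for *Bcl2l1* and *Bcl2l11*. The colours overlap for *Mcl1* and *Pmaip1*. *Pmaip1* had a count of 0 in 1 input library, which a log axis cannot show.

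*Bbc3* was the family gene furthest below its input. It measured 14.2 and 13.1 CPM in the input libraries and 3.35 and 2.51 CPM in the IP libraries. The IP values were 4.66-fold lower on average, with a log2 value of -2.20 (SE 0.30, 95% interval -2.88 to -1.53, adjusted p = 0.00091). Only 2.4% of the genes tested had a lower value. *Bad* measured 125 and 134 CPM in input and 42.9 and 67.3 CPM in IP. Its log2 value was -1.23 (SE 0.26, interval -1.80 to -0.67, adjusted p = 0.010).

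*Bcl2* measured 6.65 and 7.42 CPM in input and 3.0 and 3.82 CPM in IP. The log2 value was -1.05 (SE 0.32, interval -1.76 to -0.34) and the adjusted p of 0.049 sat at the threshold. It passed under 6 of 12 alternatives and not under the other 6, with adjusted p from 0.015 to 0.19. *Bad* and *Bbc3* stayed lower in IP under all 12.

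*Bcl2l1* and *Bcl2l11* were the family genes above their input, without passing the test. *Bcl2l1* measured 5.60 and 5.11 CPM in input and 10.7 and 7.13 CPM in IP, a log2 value of 0.74 (SE 0.31, interval 0.04 to 1.44, adjusted p = 0.14). The IP libraries were above both input libraries but far from each other, and without IP replicate 2 the gene was called m6A-modified (log2 value 0.99, adjusted p = 0.042). *Bcl2l11* measured 5.07 and 6.63 CPM in input and 8.17 and 9.89 CPM in IP (log2 value 0.63, interval -0.04 to 1.30, adjusted p = 0.18).

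The remaining genes were near or below their input. *Bax* measured 403 and 429 CPM in input and 312 and 402 CPM in IP (log2 value -0.22, interval -0.72 to 0.27). *Bid* measured 228 and 211 CPM in input and 161 and 161 CPM in IP, with a log2 value of -0.45 (interval -0.90 to 0.01, adjusted p = 0.16). *Bak1* had a log2 value of -0.59 (interval -1.31 to 0.13) and *Mcl1*, at 18.7 and 14.5 CPM in input and 16.6 and 15 CPM in IP, overlapped between the groups. *Pmaip1* had 0 and 3 counts in input and 7 and 3 in IP and was not tested. *Bid* shares 628 exonic bases, 17.7% of its exons, with *Bcl2l13* on the opposite strand where both genes end, and *Bad*, *Bak1* and *Bcl2* share 20.5%, 25.5% and 6.09% of theirs with an opposite gene. The strand used in counting is not stated, so reads of such partners cannot be told apart.

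The 3 genes that rose in CFU-E Kit-lo had log2 IP over input values of 0.74 (*Bcl2l1*), -0.22 (*Bax*) and 0.63 (*Bcl2l11*), none of them called. *Bcl2* was the gene called lower in both experiments. *Bad* and *Bbc3*, lower in IP, had values of 0.39 and 0.62 in the RNA-seq comparison, neither called.

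DRACH is the consensus in which METTL3 methylates adenosine, and GGACT is its most used form. Of the longest coding transcripts of the genes tested, 92.1% held GGACT, with a median number of 3, so presence of the letters hardly sorts genes. The family genes held 3 to 9. *Bcl2*, lower in IP, held 9, 5 of them in the 3′ untranslated region, *Bbc3* held 5, *Bad*, *Bcl2l1* and *Bax* held 3 each, *Bcl2l11* held 5 and *Mcl1* held 8. For the 3 genes lower in IP and the 2 with the highest IP over input, the 25 bases around the GGACT nearest to the stop codon are shown, with GGACT in capitals, read 5′ to 3′ in transcript orientation from the GRCm38 genome. They lie at chr1:106542701-106542725 for *Bcl2* and chr19:6950948-6950972 for *Bad*, both in the 3′ untranslated region, at chr7:16317171-16317195 for *Bbc3* and chr2:152829876-152829900 for *Bcl2l1*, both coding, and at chr2:128126226-128126250 for *Bcl2l11*, in the 5′ untranslated region.
Bcl2: ggtcttccatGGACTggagaaggga
Bad: gagcatgctgGGACTtgcagttcta
Bbc3: tctcttcatgGGACTcctcccctta
Bcl2l1: gaagagaataGGACTgaggccccag
Bcl2l11: tctgattctcGGACTgagaaacgca
The same core was present in genes on both sides of their input, and a match does not show a methylated base.

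IP over input also followed transcript composition over all genes. Across 11419 genes, which are not independent replicates and share the 4 libraries, Spearman's rho of log2 IP over input was -0.33 with GC content, 0.34 with transcript length, 0.19 with the number of GGACT and -0.07 with GGACT per kilobase. *Bbc3* (65.2% GC) and *Bax* (63.5%) fell in the decile of genes richest in GC, where the median log2 value was -0.41. *Bad* (57.1%), *Bak1* (57.1%) and *Bcl2l1* (55.9%) fell in the next decile, with a median of -0.25. *Bbc3* and *Bad* thus lay below the median of their decile, and *Bcl2l1* above it. *Bcl2* (46.3%) lay at -1.05 in a decile whose median was 0.20, and *Bcl2l11* (48.0%) at 0.63 in a decile whose median was 0.10. By transcript length, the median of the decile was -0.33 for *Bad*, -0.24 for *Bbc3*, -0.03 for *Bcl2l1*, 0.29 for *Bcl2l11* and 0.41 for *Bcl2*. The part of GC content and of transcript length in the values of these genes was not tested.

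**Figure D5:**
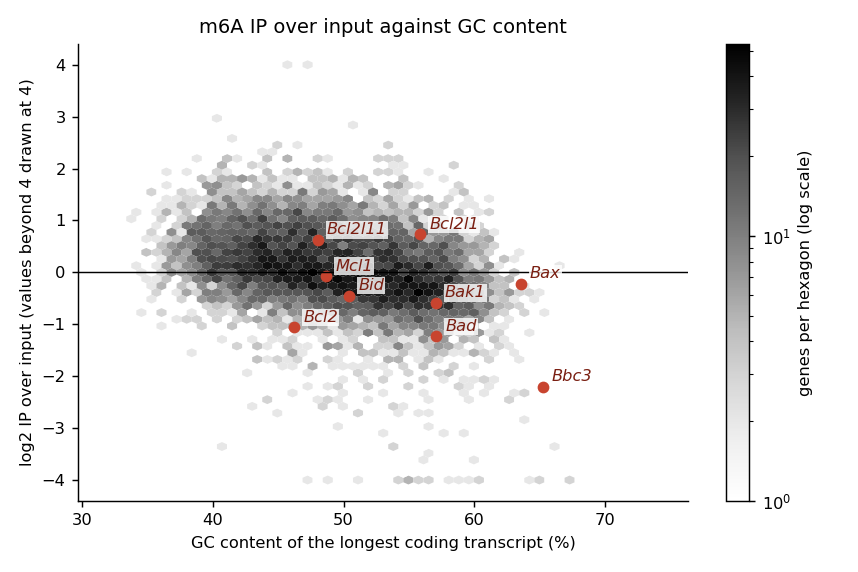
Grey hexagons count genes by GC content of the longest coding transcript (horizontal axis, percent) and log2 IP over input in control CFU-E (vertical axis), darker for more genes on a log scale, and red points are the 9 BCL2 family genes tested. *Bbc3* lies at 65.2% GC and -2.20, below most genes of like GC content, and *Bcl2l1* at 55.9% GC and 0.74, above most of them.

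In the same comparison 2 of 8 other relatives tested were m6A-modified. *Bcl2l2* had a log2 value of 2.44 (SE 0.56, adjusted p = 0.017) at only 0.295 CPM in input and 1.62 CPM in IP, and *Bcl2l13* had 1.05 (adjusted p = 0.042), at 11 and 22.7 CPM. *Bik* (-0.84), *Bcl2l12* (0.10), *Bcl2l14* (-0.38), *Bcl2l15* (0.49), *Bnip3* (0.05) and *Bnip3l* (0.33) did not pass. Among downstream genes, *Endog*, a mitochondrial endonuclease, was lower in IP (-3.98, adjusted p = 1.1e-05). Of 12 upstream regulators, *Foxo3* (1.28, adjusted p = 0.0086) and *Mapk8* (1.22, adjusted p = 0.023), which encodes the stress kinase JNK1, were m6A-modified, and the survival kinase gene *Akt1* (-1.25, adjusted p = 0.020) and the cell cycle factor *E2f1* (-1.86, adjusted p = 0.0080) were lower in IP. Of 6 turnover genes, *Huwe1* (1.07, adjusted p = 0.019), a ubiquitin ligase for MCL1, and *Usp9x* (1.65, adjusted p = 0.0028), a deubiquitinase that stabilizes it, were m6A-modified. Of these calls *Usp9x* and *Endog* held without any 1 library. Without input replicate 1 those of *Foxo3* (adjusted p = 0.12), *E2f1* (0.083), *Akt1* (0.22), *Mapk8* (0.18), *Huwe1* (0.16), *Bcl2l2* (0.13) and *Bcl2l13* (0.21) were lost. Without input replicate 2 those of *Mapk8* (0.060), *Huwe1* (0.075), *Bcl2l2* (0.076) and *Bcl2l13* (0.11) were lost, and without IP replicate 1 these 4 (0.060, 0.076, 0.066 and 0.26) and *Akt1* (0.053). *Bcl2l2* was too low to be tested in IP under the authors' filter on TPM.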

How the data were processed

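RNA-seq libraries of CFU-E (3 control, 3 *Mettl3*-deficient Kit-lo) and m6A-seq libraries of control CFU-E (2 IP, 2 input) were grouped by their labels. The 6 ProE samples were not analysed here. The authors filtered reads with fastp 0.23.4, quantified transcripts with kallisto 0.48.0 on mm10, summed them to genes with tximport and deposited estimated counts, which were whole numbers, so rounding changed nothing. The submitters' processing notes also list GRCm39, with no role given. RNA-seq used Smart-seq2 and m6A-seq SLIM-seq, whose primer carries a molecular identifier. Its use in counting is not stated.

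Each experiment was fitted on all its genes in R 4.3.3 with edgeR 4.0.16 (TMM, filterByExpr, quasi-likelihood test, Benjamini-Hochberg adjustment), without a block, since no label ties same-numbered libraries together, same-numbered RNA-seq libraries deviated independently (r from -0.072 to 0.034), and the m6A libraries form 2 pairs only. The code was tested on simulated data. The authors' thresholds on fold and adjusted p were used. The authors' filter of 1 TPM, DESeq2 1.42.0, other scalings and filters, a replicate block and leaving out each library were alternatives. Named were the 10 genes, the other relatives in each table, *Mettl3*, *Kit* and up to 6 called genes of each other list, the largest first, and 1 gene of the downstream list is not reported here. Coordinates and transcript lengths came from GENCODE on GRCm38. Members and lists were chosen with earlier results of these data known, and no test was run over a list.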

Additional observations from a re-analysis of the deposited data

How the results depend on the processing

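Among the called genes of the 10, *Bcl2*, *Bcl2l1* and *Bax* in RNA-seq and *Bad* and *Bbc3* in IP kept their direction and call. This held under every alternative that could be run for them. Of the genes not called, *Bak1*, *Bad*, *Bid* and *Bbc3* in RNA-seq and *Bax*, *Bak1* and *Bcl2l11* in IP also kept their direction, and stayed uncalled. The strict count filter and the TPM filter removed *Bcl2* and *Pmaip1* from the RNA-seq comparison. The count of 2631 DEGs (1453 higher, 1178 lower) became 4128 with no fold threshold (2024 lower) and 1147 (665 higher, 482 lower) when tested against a fold of 1.5. Without 1 library it ran from 2180 to 2726. The 904 m6A-modified genes became 1451 with upper quartile scaling and 164 to 1358 without 1 library, the lowest without input replicate 1, where the 900 genes lower in IP became 427, of a range from 427 to 968.

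*Bcl2* in IP was no longer called with library size only (-0.90, adjusted p = 0.12), upper quartile scaling (-0.92, 0.062), the TPM filter (-0.97, 0.069) and without input replicate 1 (0.16), input replicate 2 (0.19) or IP replicate 1 (0.15). The cause was not tested. *Mcl1* in IP was 0.09 with library size, 0.06 with the upper quartile, 0.01 with the TPM filter and -0.24 to 0.10 over all alternatives, the last without input replicate 1. With 1 library left out, the sign also turned in RNA-seq for *Pmaip1* (-0.49 to 0.80, negative without Kit-lo replicate 2), *Bnip3* (-0.46 to 0.11) and *Mettl3* (-0.12 to 0.0027), both positive without Kit-lo replicate 3, and in IP for *Bcl2l12* (-0.10 to 0.26) and *Bcl2l14* (-2.66 to 2.62). None of these values passed the test.

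With the replicate number as a block, DEGs numbered 2495, m6A-modified genes 1783 and genes lower in IP 1755, and *Bid* was called lower in IP (-0.45, adjusted p = 0.036). Of the 10 genes no other call changed under this block. In the m6A libraries same-numbered IP and input deviated together (r = 0.205), with 2 pairs only and no label that ties them to the same RNA.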
